A study of Rattus norvegicus with 3 samples.

Results

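The tissue inhibitors of metalloproteinases (TIMPs) and the proteases that face them in the arterial wall were followed through balloon injury of the rat common carotid artery. Members were a list of 10 genes: the inhibitors Timp1, Timp2, Timp3, Timp4 and Reck, the secreted proteases Adamts1, Adamts4, Adamts5 and Adamts9, and the membrane protease Adam17. Probes were assigned by matching the sequence accession on the array, without its version, to a RefSeq gene table. Of the 10 genes, 9 had a probe on at least 1 array, out of 15287 genes named in this way over all arrays, and 8 had a probe on every array. Adamts1 had a probe on the day 7 array only, and no probe was matched to Reck.

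Total RNA came from common carotid arteries, taken whole, of male Wistar rats without injury, 7 days after balloon injury or 21 days after it. The procedure draws an inflated balloon along the vessel, which strips the endothelium and stretches the muscular wall. The labels state RNA isolation for each animal, and the design text mentions independent experiments with different rats at each time; 1 array per group was analysed here, 3 in all. There were therefore no biological replicates: no test was possible and no p-value is given, each difference is one between 2 arrays, and the figure after ± is a technical SD from replicate spots within the arrays, taken from other probes of like signal where a probe had 1 spot. The uninjured and day 21 arrays shared 1 design and 1 scan, whereas the day 7 array had another design, scan and software release, so that, wherever day 7 is compared, time after injury and array batch cannot be told apart.

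TIMPs are small secreted proteins that occupy the active site of matrix metalloproteinases (MMPs), and TIMP3, which binds to the extracellular matrix, also inhibits ADAM17 and several ADAMTS enzymes. ADAMTS proteases are secreted, multidomain zinc enzymes; those studied here cleave the large proteoglycans versican and aggrecan. In an injured artery the balance of proteases and inhibitors is known to bear on the migration of smooth muscle cells through the basement membrane and elastic layers and on matrix turnover in the neointima.

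Signals were expressed relative to the 75th percentile of the same array, over the probes present on all 3 arrays, or, for day 21 against uninjured, over all probes of their common design. A member not well above background on 1 of the arrays has a lower bound only. Timp1 was the member higher by 2-fold or more at day 7, and Adamts9 the member lower by 2-fold or more. At day 21 Timp1 was within 2-fold of the uninjured artery, Adamts9 was 2.10-fold lower, and Adamts5 had a bound 3.24-fold higher. Timp2, Timp3, Timp4 and Adam17 were within 2-fold in each of the 3 comparisons under this scaling. RNA came from whole arteries, in which fewer cells of a type and less RNA per cell cannot be told apart. Each ratio was also computed under up to 8 alternatives: scaling on the median, on the 75th percentile of probes well above background or on all probes of each array's own design (for day 21 against uninjured, on shared probes only), quantile normalization, normexp background correction, outlier spots kept, the mean over a gene's probes, and the authors' deposited table. For a gene with 1 probe, the mean over probes cannot differ from the value in the text. Keeping outlier spots hardly moved any member ratio. The counts of alternatives below include both settings. Ratios at day 7 or day 21 are against the uninjured artery unless another is named.

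At day 7, 7 of the 8 members with a shared probe were measured, 1 of them higher and 1 lower by 2-fold or more. Of all 6708 genes measured in that comparison, 20.1% were higher and 16.8% lower by this margin, 36.9% together, so the count of members was near this background. The median log2 ratio at day 7 was 0.25 over the 6 members well above background on both arrays and -0.01 over the 5244 such genes. At day 21 against uninjured, 1 of 8 members was higher, Adamts5 on a bound, and 1 lower by 2-fold or more, where the background was 9.90% and 14.6%, 24.5% together, and the medians were -0.04 for members and -0.20 for all genes. At day 21 against day 7, 2 of 8 members were higher by that margin, Adamts9 and, on a bound, Adamts5, and 1 was lower, Timp1. The background was 10.5% and 26.2%, 36.7% together, with medians of -0.34 for members and -0.19 for all genes. These counts were near the background too.

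**Figure D1:**
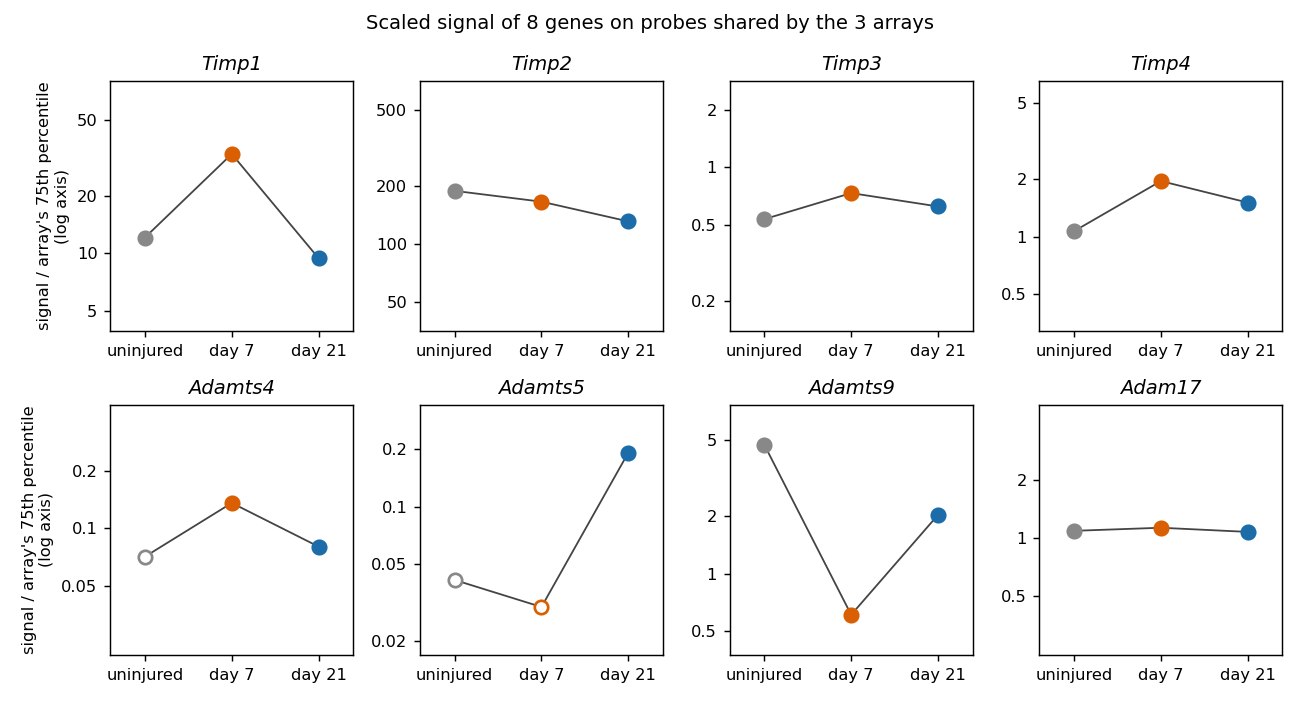
Signal of each of 8 genes divided by the array's 75th percentile over shared probes (log axis, each panel spanning the same ratio) on the uninjured, day 7 and day 21 arrays, 1 array each. Filled points were well above background and open points were not. Timp1 peaks at day 7 with a value of 33.0, Adamts9 is lowest there at 0.610, and the 3 points of Adam17 lie between 1.08 and 1.13.

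Timp1 encodes a secreted inhibitor of most MMPs and was measured by 10 spots of 1 probe on each array. Its signal was 12.1 times the 75th percentile on the uninjured array, 33.0 times on the day 7 array and 9.43 times on the day 21 array. The day 7 array stood highest, and the spots of the 3 arrays did not overlap after scaling on shared probes. With the scaling on all probes used for day 21 against uninjured, the spots of those 2 arrays overlapped. As raw intensity the spots ran between 1404 and 1634 units on the uninjured array, between 6482 and 8728 units on the day 7 array and between 3370 and 3959 units on the day 21 array. The log2 signals of the 10 spots had an SD of 0.08 in the uninjured artery, 0.15 at day 7 and 0.08 at day 21. Timp1 was thus 2.73-fold higher at day 7 than in the uninjured artery, a log2 ratio of 1.45 ± 0.05 at percentile 91.3 among the genes with a measured ratio. At day 21 it was 3.50-fold lower than at day 7 (-1.81 ± 0.05), a sign kept in all 8 alternatives, although own-design scaling gave -0.44, short of 2-fold. Against the uninjured artery the day 21 ratio was -0.21 ± 0.03, within 2-fold, and it took either sign among the alternative settings, between -0.36 and 0.38.

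**Figure D2:**
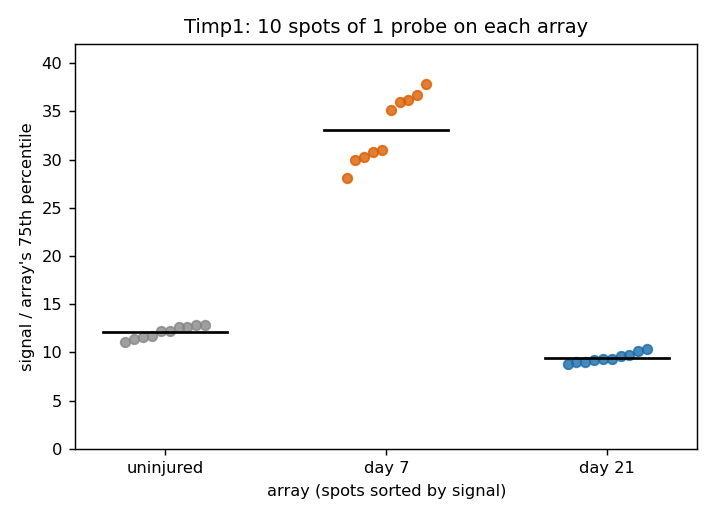
Signal of the 10 Timp1 spots on each array divided by that array's 75th percentile over shared probes (linear axis from 0), sorted within the array, for uninjured, day 7 and day 21; the bar is the mean on the log2 scale. The spots show technical spread within 1 array and are no replicates of the condition. All 10 day 7 spots lie above every spot of the other arrays.

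The direction of the Timp1 difference at day 7 was the same in all 8 alternatives, with log2 ratios between 0.23 and 1.66. The smallest value, below 2-fold, came from scaling each array on all probes of its own design, which moved the median of all genes to -1.23. Relative to the median of all genes under the same setting, Timp1 lay 1.46 above it in the scaling used here and at least 1.46 above it in each of the 8 alternatives. The value from the authors' deposited table was 1.23.

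Since Timp1 was the member higher by 2-fold or more at day 7, the 250 bases before its transcription start were read from RefSeq on GRCr8, chrX:3771123-3771372 on the minus strand, a region 61.2% G or C. They are printed here 5′ to 3′, with matches to the motifs searched in capitals.
Timp1: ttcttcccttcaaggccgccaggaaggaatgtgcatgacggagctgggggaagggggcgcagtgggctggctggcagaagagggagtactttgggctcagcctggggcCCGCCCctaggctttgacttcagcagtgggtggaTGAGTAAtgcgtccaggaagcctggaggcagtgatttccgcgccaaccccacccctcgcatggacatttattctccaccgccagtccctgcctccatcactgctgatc
Windows of the same length were searched on both strands for TGANTCA and its variant TGAGTAA, which transcription factor AP-1 can bind, for TATAAA, for the GC box GGGCGG, for the E box CACGTG and for the CArG box of serum response factor. The Timp1 window held TGAGTAA at 108 to 102 bases before the start and, on the opposite strand, GGGCGG at 142 to 137. TGAGTAA occurs in 2.38% of all 33469 such windows and in no other of the 9 members with an entry, and GGGCGG in 30.5% of all windows and in 7 of the 9. None of the 9 held TGANTCA, which occurs in 6.34% of all windows, nor the E box (5.59%) or the CArG box (1.5%). A match describes the sequence and says nothing of binding in these arteries.

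Timp2 encodes the inhibitor that, besides blocking MMPs, takes part with Mmp14 in the activation of proMMP-2 at the cell surface. Its signal was 189 times the 75th percentile on the uninjured array, 166 times on the day 7 array and 131 times on the day 21 array. The uninjured array stood highest and day 21 lowest, by small steps. The log2 ratio was -0.19 ± 0.13 at day 7 and -0.38 ± 0.13 at day 21, each against uninjured, and -0.34 ± 0.15 at day 21 against day 7. The first lay within its 95% technical interval of 0, and the signs held in 6, 4 and 5 of 8 alternatives, so that no direction is given for Timp2. Own-design scaling gave -1.41 at day 7 and 1.03 at day 21 against day 7, both past 2-fold. The medians of all genes were then -1.23 and 1.18.

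Timp3, the matrix-bound inhibitor, had 0.535 times the 75th percentile in the uninjured artery, 0.732 times at day 7 and 0.623 times at day 21. Both injured arteries were above the uninjured one. The log2 ratio against uninjured was 0.45 ± 0.16 at day 7, or 1.37-fold, and 0.37 ± 0.18 at day 21, or 1.29-fold. The day 21 sign held in all 8 alternatives (0.22 to 0.85), whereas the day 7 sign held in 6 and turned with own-design scaling (-0.77) and in the authors' deposited table (-0.45).

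Timp4, an inhibitor known from heart and vessel, had 1.07 times the 75th percentile in the uninjured artery, 1.95 times at day 7 and 1.51 times at day 21 on its shared probe. The 2 injured arteries were again the higher ones. The day 7 ratio was 0.87 ± 0.14, or 1.83-fold, and it kept its sign in 7 of 8 alternatives, being -0.35 with own-design scaling. The day 21 ratio against uninjured was 0.64 ± 0.16 on the same probe and 0.95 ± 0.21 on a second probe found only on the design of these 2 arrays. Both probes were higher at day 21, and the sign held in all 8 alternatives (0.50 to 1.12, the highest, past 2-fold, with median scaling). Between day 21 and day 7 the ratio was -0.37 ± 0.14 for Timp4 and -0.23 ± 0.14 for Timp3, with the sign held in 5 of 8 alternatives for each. A further Timp4 probe, on the day 7 design alone, had 0.624 times that array's own 75th percentile and can be compared with no other array.

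**Figure D3:**
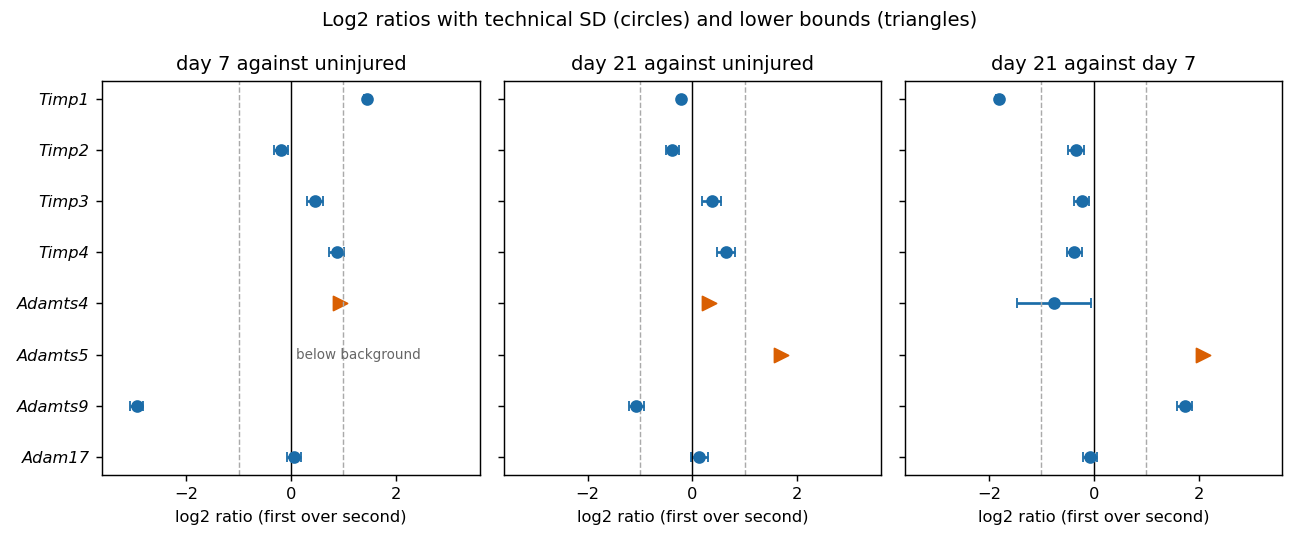
Log2 ratio of each of 8 genes in the 3 comparisons, first-named array over second. Circles with bars give the ratio ± technical SD where both arrays were well above background, triangles give lower bounds, and dashed lines mark 2-fold. Adamts9 is the leftmost gene at day 7 (-2.95) and lies at 1.73 in day 21 against day 7, opposite to Timp1 in both panels.

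Adamts9 encodes a protease that cleaves versican and aggrecan. Its signal was 4.70 times the 75th percentile on the uninjured array, 0.610 times on the day 7 array and 2.03 times on the day 21 array. Day 7 stood lowest and day 21 in between. At day 7 it was 7.71-fold lower than in the uninjured artery (-2.95 ± 0.12), at percentile 0.820 among the genes with a measured ratio. At day 21 it was 3.32-fold higher than at day 7 (1.73 ± 0.15). Both differences kept their sign and stayed past 2-fold in all 8 alternatives, the nearest to 0 being -2.46 and 1.45, both with normexp. At day 21 against uninjured the ratio was -1.07 ± 0.14; its sign held in all 8 alternatives, but it fell short of 2-fold with median scaling and normexp (both -0.59) and in the authors' deposited table (-0.96).

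Adamts9 was the member lower by 2-fold or more at day 7. The window before its start lies at chr4:127019877-127020126 on the minus strand of GRCr8 and is 71.6% G or C. Capitals mark its only match, the GC box on the opposite strand at 49 to 44 bases before the start.
Adamts9: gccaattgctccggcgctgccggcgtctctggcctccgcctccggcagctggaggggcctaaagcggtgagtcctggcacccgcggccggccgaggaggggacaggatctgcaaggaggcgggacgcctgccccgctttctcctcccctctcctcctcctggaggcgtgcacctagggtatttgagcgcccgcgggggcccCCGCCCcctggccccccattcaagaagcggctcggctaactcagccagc
The TGAGTAA of the Timp1 window was not among its letters. Of the 9 members, 1 held TATAAA, Adamts1, beside 12.9% of all windows.

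Adamts5, a main aggrecanase of cartilage that also cleaves versican in vessels, was not well above background on the uninjured array or on the day 7 array, and was well above it on the day 21 array. The intensities were 5.27, 6.91 and 73.6 units for uninjured, day 7 and day 21, and the scaled values were 0.0415, 0.0300 and 0.192 times the 75th percentile. Day 21 stood highest, and between the other arrays no fold can be given. The Adamts5 bound at day 21 was 3.24-fold higher against the uninjured artery and 4.26-fold higher against day 7. The measured log2 ratios behind these bounds were 2.35 ± 0.58 and 2.68 ± 1.44. The second lay within its 95% technical interval of 0, so no minimum difference from day 7 can be given. With normexp, whose added offset of 50 units exceeds the dim signals, the bounds fell below 2-fold, at log2 0.30 and 0.57.

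Adamts4, the other aggrecanase, was dim throughout, with 9.02, 31.2 and 30.7 intensity units on the uninjured, day 7 and day 21 arrays. The uninjured spot was not well above background. After scaling, the values were 0.0710, 0.135 and 0.0801 times the 75th percentile, highest at day 7. Against uninjured, the Adamts4 bound was 1.91-fold higher at day 7 and 1.25-fold higher at day 21. Both bounds equal the measured log2 ratios, 0.93 ± 0.78 and 0.32 ± 0.45. These were within the technical error, so no minimum difference can be given. Of the 5 alternatives that gave a day 7 bound, 1 placed it past 2-fold (log2 1.05, scaling on probes well above background). Between day 21 and day 7 the ratio was -0.76 ± 0.70.

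Adamts1, a versican-cleaving enzyme of the vessel wall, was read by 10 spots of 1 probe at day 7. Their intensity was 1092 units with a range from 998.5 to 1219, an SD of 0.09 on the log2 scale, and 5.21 times the 75th percentile of all probes of that array. This is a level at 1 time, and no change after injury can be read from it.

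Adam17, the sheddase that releases tumour necrosis factor and ligands of the epidermal growth factor receptor, had 1.09 times the 75th percentile in the uninjured artery, 1.13 times at day 7 and 1.08 times at day 21. The 3 values lay closer together than their technical error. The log2 ratio was 0.05 ± 0.14 at day 7 and 0.13 ± 0.16 at day 21 against uninjured, and -0.07 ± 0.13 at day 21 against day 7; the second was scaled on all probes, the level at day 21 above on shared ones. A difference of this size is not resolved here. Own-design scaling gave -1.17 at day 7 against uninjured, where the median of all genes was -1.23.

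Genes of related function were counted on lists chosen for their roles, and the counts include genes with a bound only. Over all genes measured, 20.1% were higher and 16.8% lower by 2-fold or more at day 7. The shares were 9.90% and 14.6% at day 21, and 10.5% and 26.2% at day 21 against day 7. They are the background for each list below. Of 19 MMPs, the enzymes TIMPs inhibit, 13 were measured at day 7 against uninjured; 10 were higher and 1 lower by 2-fold or more. For 8 of the 10 this is a bound: they were above background at day 7 only, so they entered the count through the array on which they were high. Of the 5 above background on both arrays 2 were higher and 1 lower, where the shares among all such genes were 16.1% and 16.3%. Mmp12 (macrophage elastase) had a lower bound of 138-fold and Mmp7 (matrilysin) one of 47.2-fold, and the membrane-type enzyme gene Mmp24 was 14.0-fold higher (3.80 ± 0.21), whereas Mmp16, also membrane-bound, was 3.02-fold lower (-1.60 ± 0.09). At day 21, 5 of 14 measured MMPs were higher than in the uninjured artery by 2-fold or more, all 5 of them on bounds. They were led by Mmp12 (bound 370-fold), Mmp7 (bound 21.4-fold) and the gelatinase gene Mmp9 (bound 9.55-fold). The Mmp12 bound equals its measured ratio, which has a technical SD of 0.44 on the log2 scale. Lower at day 21 were 2, Mmp16 (-1.67 ± 0.14) and Mmp23 (-1.26 ± 0.13). Between day 21 and day 7, the comparison in which Timp1 was lower, 6 of 13 MMPs were lower (3 of them on bounds) and 2 higher by 2-fold or more, the higher ones being Mmp12 (1.26 ± 0.15) and the collagenase gene Mmp13 (1.15 ± 0.21). Mmp24 was at -3.33 ± 0.16, and the bounds for Mmp10 and Mmp11 were 7.19-fold and 5.80-fold lower; genes with a bound cannot be ranked against Mmp24. The median over MMPs well above background on both arrays was 0.52 (5 genes) at day 7, -0.19 (8 genes) at day 21 and -0.39 (10 genes) at day 21 against day 7, where the medians of all genes were -0.01, -0.20 and -0.19.

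Other ADAMTS and ADAMTS-like genes were few on the shared probes, 3 of 21. Adamts7, whose product cleaves cartilage oligomeric matrix protein (COMP), was 11.8-fold higher at day 7 than in the uninjured artery (3.57 ± 0.17) and 4.28-fold higher at day 21 (2.10 ± 0.18). Adamts7 was 3.06-fold lower at day 21 than at day 7 (-1.61 ± 0.15). Its relative Adamts12, which cleaves the same substrate, was 2.21-fold higher at day 21 (1.14 ± 0.17) on the brighter of 2 probes. On the probe shared with the day 7 array it was at -0.05 ± 0.30 at day 21 and 0.64 ± 0.46 at day 7, both within the technical interval. The remaining 3 of 5 genes measured at day 21 were within 2-fold. Of 2 other ADAM genes measured at day 7, Adam23 was past 2-fold (1.09 ± 0.50). At day 21 it was the 1 of 4 past 2-fold, on the lower side (bound 3.05-fold).

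Substrates and binding partners of ADAMTS proteases differed in both directions. At day 7, 4 of 10 were higher by 2-fold or more, among them Comp (8.54-fold, 3.09 ± 0.16), aggrecan (Acan, bound 8.23-fold) and fibronectin (Fn1, 1.65 ± 0.13). Biglycan (Bgn, -1.16 ± 0.13) and neurocan (Ncan, bound 5.93-fold) were the 2 lower by that margin. At day 21, 2 of 13 were higher, Comp (3.43 ± 0.16) and Fn1 (2.44 ± 0.13), and 2 lower, brevican (Bcan, -1.55 ± 0.37) and versican (Vcan, -1.05 ± 0.14). The Vcan value rests on the brighter of 2 probes of that design; the probe it shares with the day 7 array gave -0.22 ± 0.16 at day 21, short of 2-fold, and -0.02 ± 0.13 at day 7. Between the days Acan was 4.92-fold lower at day 21 (-2.30 ± 0.20) and Thbs1 was at -1.33 ± 0.99, within its technical interval, while the Ncan bound was 5.58-fold higher. The list's medians in the 3 comparisons were 0.24 (8 genes), -0.60 (12 genes) and 0.08 (9 genes), beside the same -0.01, -0.20 and -0.19 of all genes.

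**Figure D4:**
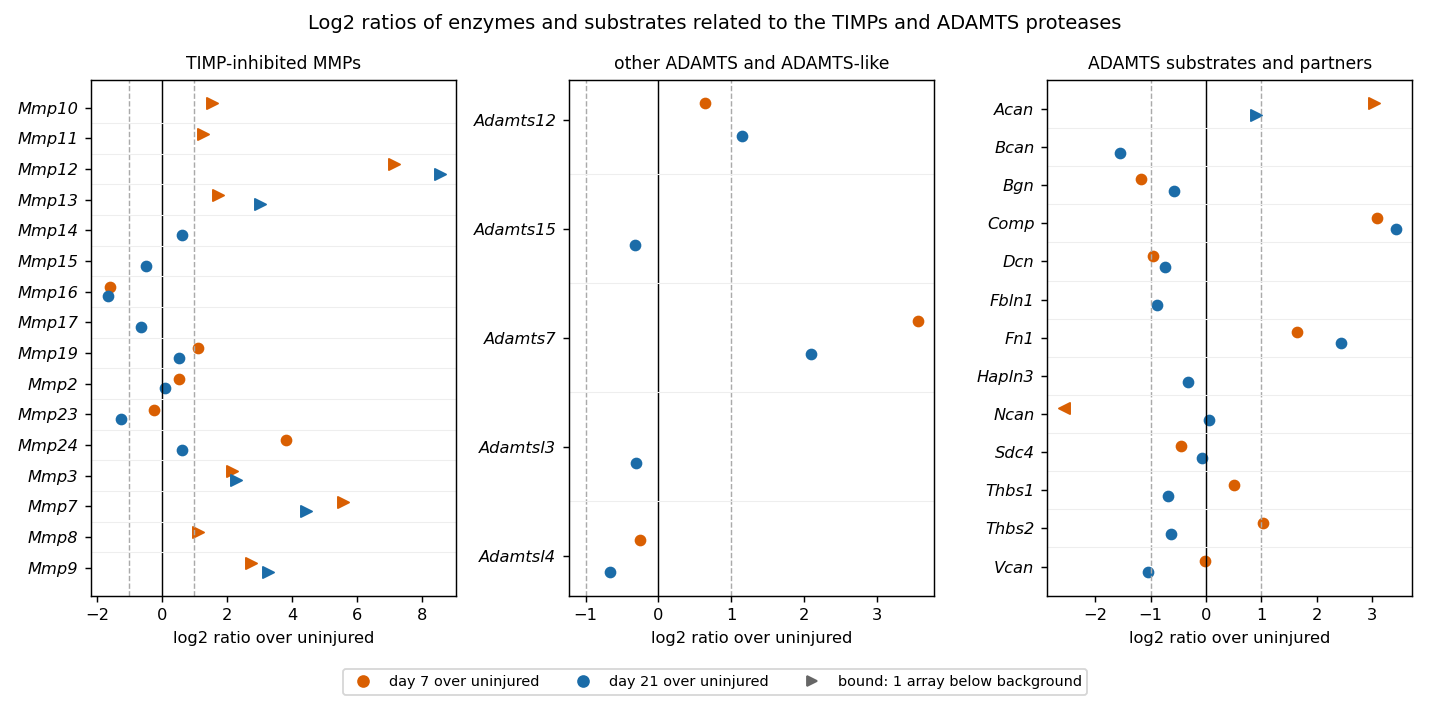
Log2 ratio over uninjured at day 7 (orange) and day 21 (blue) for measured genes of 3 lists: MMPs inhibited by TIMPs, other ADAMTS and ADAMTS-like genes, and ADAMTS substrates and partners. Circles are ratios, triangles are bounds with 1 array below background, and dashed lines mark 2-fold. The 2 values of Adamts12, Vcan and Thbs2 come from different probes. Mmp12 lies farthest right in the first panel and Adamts7 in the second, at 3.57 at day 7 and 2.10 at day 21.

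Around Adam17, whose own ratios lay within the technical error, genes of its substrates and partners were counted. At day 7, 4 of 9 were higher by 2-fold or more, including the growth factor gene Tgfa (bound 4.62-fold), Vcam1 (1.35 ± 0.09) and the receptor gene Csf1r (1.20 ± 0.16), and the chemokine gene Cx3cl1 was lower (-2.05 ± 0.11). At day 21, 6 of 14 were higher, led by the tumour necrosis factor receptor gene Tnfrsf1b (bound 33.6-fold) and the interleukin 6 receptor gene Il6r (3.35 ± 0.20), and 2 were lower, the ligand genes Areg (bound 3.20-fold) and Hbegf (2.83-fold). Between day 21 and day 7, 2 of 9 were higher and 3 lower, 2 of the 3 on bounds. The list's medians in the 3 comparisons were 0.73 (7 genes), 0.55 (10 genes) and 0.48 (7 genes), beside -0.01, -0.20 and -0.19 for all genes. Of genes for TIMP-binding and clearance proteins, the VEGF receptor gene Kdr, whose product TIMP3 binds, was the 1 of 6 past 2-fold at day 7, on the higher side (1.53 ± 0.15). At day 21 Kdr (2.46 ± 0.17) and Efemp1, whose product also binds TIMP3 (1.75 ± 0.16), were higher and Itgb1 was lower (-1.13 ± 0.13), 3 of 6 in all, and 0 of 6 were past 2-fold at day 21 against day 7. The medians of these 6 genes were 0.75, 0.69 and 0.06, beside the same medians of all genes.

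Cytokines and growth factors known to regulate TIMP1 or ADAMTS genes in cultured cells were also measured. On 1 probe of all 3 arrays, Il1b was 4.15-fold higher at day 7 (2.05 ± 0.10) and 9.10-fold higher at day 21 (3.19 ± 0.09); a brighter probe of the uninjured and day 21 design gave 5.16-fold at day 21 (2.37 ± 0.20). Tgfb1 was 3.68-fold higher at day 7 (1.88 ± 0.06) and 2.13-fold higher at day 21 (1.09 ± 0.07). These were the 2 of 7 genes of that list past 2-fold at day 7, with 0 lower. At day 21 they were the 2 of 9 that were higher, while Tgfb3 (-1.94 ± 0.14) and Fgf2 (-1.43 ± 0.08) were lower. The medians of this list were 0.04 (5 genes), 0.12 (8 genes) and -0.63 (5 genes) in the 3 comparisons, beside -0.01, -0.20 and -0.19 for all genes.

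The 3 named genes of 5162 whose pair of ratios, day 7 and day 21 each over uninjured on the shared probes, lay closest to that of Timp1 (1.45 and -0.36) were Usp25 (1.45 and -0.34), C1qtnf1 (1.45 and -0.39) and Traf4 (1.40 and -0.35). This likeness rests on 3 arrays.

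Cell type markers differed between the arrays alongside these values. Of 8 contractile smooth muscle markers, which define the labelled tissue, 7 had a probe, and these 7 were well above background on the uninjured and day 21 arrays. On shared probes the summed scaled signal of 4 contractile smooth muscle markers was 172 on the uninjured array, 37.2 at day 7 and 28.2 at day 21. That of 5 macrophage markers was 2.59, 27.3 and 76.9 in the same order, that of 4 endothelial markers 1.09, 4.60 and 5.84, and that of 5 fibroblast markers 199.7, 382 and 172. The smooth muscle sums are mostly Tagln, and Lmod1 was at 0.30 ± 0.27 at day 7. The macrophage sum at day 21 is mostly Gpnmb. The fibroblast sum follows Col1a1, the 1 of 5 past 2-fold at day 7 (1.26 ± 0.13), whereas Dcn was at -0.95 ± 0.08. At day 21, 2 of 6 fibroblast markers were higher, Lum (2.19 ± 0.13) and Pdgfra (1.40 ± 0.15), and 1 lower, Mfap5 (-2.07 ± 0.13). Of 6 endothelial markers at day 21, 4 were higher by 2-fold or more. Cdh5 was at -0.21 ± 0.22, and the Pecam1 bound was 1.67-fold. Like the fibroblast sum, those of Schwann cell (5) and neutrophil (3) markers were highest on the day 7 array. In the same order of arrays they were 1.13, 17.7 and 0.647 for Schwann cells and 0.447, 2.09 and 0.502 for neutrophils. S100b was below background on every array. Higher by 2-fold or more at day 7 were 5 of 5 macrophage, 4 of 4 endothelial, 4 of 4 measured Schwann cell and 3 of 3 neutrophil markers, and 3 of 4 smooth muscle markers were lower. At day 21 against uninjured 1 of 2 adipocyte markers was higher and 3 of 4 skeletal muscle markers were lower. Their part in the values of the TIMP, ADAMTS and ADAM genes was not tested.

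**Figure D5:**
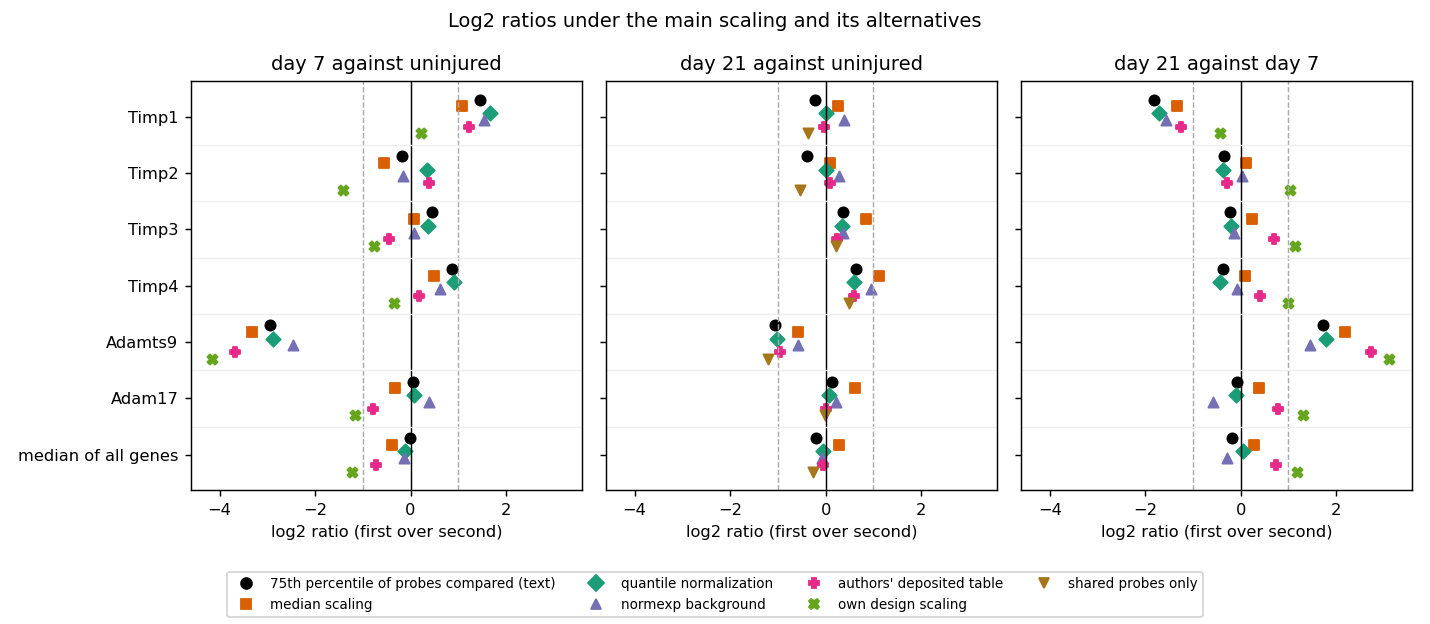
Log2 ratios of 6 genes and the median of all genes in the 3 comparisons under the scaling of the text (black circles) and under alternatives. Of these, normexp also takes another signal column and an offset, and the authors' deposited table has its own processing. Scaling on probes well above background, outlier spots kept and the mean over probes are not drawn. Dashed lines mark 2-fold. Scaling each array on its own design shifts the genes and the median together, with medians of -1.23 at day 7 against uninjured and 1.18 at day 21 against day 7. Timp1 stays right of the median at day 7 and Adamts9 left of it.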

How the data were processed

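One-colour Agilent rat arrays were labelled with Cy3, per the labels. Spot intensity was extracted with Agilent Feature Extraction 10.7.3.1 (uninjured, day 21) or 11.0.1.1 (day 7), with background subtraction and spatial detrending but no scaling between arrays, per the file headers, which place the designs on rn4; the submitters' processing notes give 10.7.3.1 for all 3. A table of 9260 probes deposited by the authors is on a log2 scale, its medians being 7.64 (uninjured), 7.62 (day 7) and 7.64 (day 21); its normalization and centring are not given in the sources used here, and it held 6 members.

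Control spots were left out, as were spots with an outlier flag (0.242% uninjured, 1.46% day 7, 0.274% day 21), and spots of 1 probe averaged as log2. In the same order, 59.8%, 76.5% and 66.7% of probes passed as well above background; 0 spots were saturated. The 75th percentile was subtracted, over 10583 probes shared by all arrays for comparisons with day 7, or over 40989 probes for day 21 against uninjured. Names came from RefSeq (GRCr8). The probe with the highest mean signal stood for a gene. For a bound, the dim array's value was its own signal or, if higher, the weakest signal that passed as above background. Where its own signal was used, the bound equals the measured ratio and carries that ratio's technical error. Examples are Adamts4 and, at day 21 against uninjured, Mmp12 and Tnfrsf1b. Some probes brighter than the weakest passing signal did not pass, so a bound is not a strict minimum. Technical SD came from probes with at least 5 spots, interpolated over signal in 12 bins and divided by the root of the number of spots. Scaling and calls were tested on known folds put into copies of the uninjured array, which leaves scaling between designs and the bounds untested. Genes named outside the members are up to 3 per direction and list with the largest ratios or bounds. Members and lists were chosen with earlier results of these data known. The list of inhibitors of other protease classes is not reported here. Normexp (limma 3.58.1) used the median spot signal, since no mean signal column was at hand.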

Additional observations from a re-analysis of the deposited data

How the results depend on the processing

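The number of members at least 2-fold apart was 2 at day 7, 2 at day 21 (both against uninjured) and 3 at day 21 against day 7. At day 21 against uninjured it was 0 with normexp and 0 of the 6 members in the authors' deposited table, and at day 21 against day 7 it was 5, all higher, with own-design scaling; the cause was not tested. In the other alternatives it stayed within 1.5 times, though with own-design scaling 0 were higher and 3 lower at day 7, and with median scaling 2 were higher and 0 lower at day 21 against uninjured; no ratio past 2-fold in the text's scaling changed sign. Own-design scaling moved ratios within 2-fold past it with the opposite sign, Adam17 at day 7 (-1.17) and, at day 21 against day 7, Timp2 (1.03), Timp3 (1.14) and Adam17. Among all genes 2-fold apart, the share higher at day 7 was 54.4% in the text's scaling, 31.0% with median scaling, 41.9% with quantile normalization, 40.3% with normexp, 21.4% in the authors' deposited table and 6.71% with own-design scaling. At day 21 against uninjured it was 40.5%, against 74.6%, 59.8%, 73.7% and 60.2% in the first 4 alternatives, and at day 21 against day 7 28.6%, against 53.8%, 56.6%, 86.7% and 90.4% with median scaling, quantile normalization, the deposited table and own-design scaling. Normexp placed fewer genes past 2-fold, 5.43% higher and 8.04% lower at day 7, 7.72% and 2.75% at day 21 against uninjured; own-design scaling placed more, 3.76% and 52.3% at day 7, 54.3% and 5.78% at day 21 against day 7. No paired analysis was possible because each group had 1 array. Dim probes limit Adamts4 and Adamts5.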
